A study of Mus musculus with 2 samples.

Results

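The mitochondrial solute carriers of the SLC25 family were compared between leukaemia cells sorted by their NADH/NAD+ balance. These proteins share one fold and sit mostly in the mitochondrial inner membrane, which is closed to charged metabolites. Each exchanges or imports a narrow set of solutes, among them ADP and ATP, phosphate, citrate, amino acids, iron, glutathione and the cofactors NAD+, coenzyme A, FAD and folate. They thereby connect the metabolite pools of the cytosol, where the sorting sensor reads NADH and NAD+, with those of the mitochondrial matrix.

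The members were the genes whose symbol is Slc25a followed by a number, found through the RefSeq accession of each non-control array probe. The aspartate-glutamate, oxoglutarate and acylcarnitine carriers (Slc25a12, Slc25a13, Slc25a11 and Slc25a20) were left out by the rule, and so were family members with other names, such as the uncoupling protein genes. This gave 43 genes with 52 probes, of 20618 named genes and 39085 probes in all. Of the 43, 28 were measured on both arrays, 9 were detected only on the SoNar-low array, and 6 on neither. A gene is called detected on an array below where the scanner software found it well above background.

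Mouse bone marrow, with an age of 8 weeks in the labels, was the source of the B-cell acute lymphoblastic leukaemia (B-ALL). The leukaemia cells were sorted as SoNar-high or SoNar-low by the fluorescence ratio of SoNar, a sensor whose ratio under violet and blue light reports more NADH per NAD+ when it is higher. A one-colour Agilent array was hybridised with total RNA of each population, 1 array per population and 2 in all. The sample titles name the same samples N-myc-high and N-myc-low, and neither strain, genotype nor the driver of the leukaemia is described in the labels used here.

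With 1 array per population there is no replicate, no difference below has a test, and no p-value is given. The number of arrays limits the precision. Of 43020 spots, the scanner software detected 44.8% on the SoNar-high array, with a lowest detected signal of 40.8 intensity units. The SoNar-low array had 72.9% detected, down to 17.7 units. For 191 probes printed many times, a difference between a spot of each array had a median SD of 0.15 on the log2 scale, and 2 probes of one gene differed with a median SD of 0.32. The arrays were scanned on different days, and scan day and population cannot be told apart. In a bulk population, fewer cells of a type and less RNA per cell cannot be told apart either.

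Promoter sequence is shown for 3 nucleotide and uncoupling-type carriers, because the sample titles name N-myc and these carry the core E-box CACGTG, the word that MYC proteins bind with MAX. The windows run from 250 bases before to 50 after an annotated start (RefSeq, GRCm38.p6). Capitals mark CACGTG and, in Slc25a36, also the cAMP response element TGACGTCA. Both words read the same on either strand, and they do not overlap here.
Slc25a14 (chrX:48623198-48623497, + strand): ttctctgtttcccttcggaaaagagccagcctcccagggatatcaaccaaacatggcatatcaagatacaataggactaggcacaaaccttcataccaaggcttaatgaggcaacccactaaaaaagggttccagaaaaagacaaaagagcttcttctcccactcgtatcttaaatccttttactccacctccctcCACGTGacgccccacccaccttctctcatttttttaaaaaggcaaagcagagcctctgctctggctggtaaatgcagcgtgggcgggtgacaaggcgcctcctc
Slc25a36 (chr9:97110992-97111291, - strand): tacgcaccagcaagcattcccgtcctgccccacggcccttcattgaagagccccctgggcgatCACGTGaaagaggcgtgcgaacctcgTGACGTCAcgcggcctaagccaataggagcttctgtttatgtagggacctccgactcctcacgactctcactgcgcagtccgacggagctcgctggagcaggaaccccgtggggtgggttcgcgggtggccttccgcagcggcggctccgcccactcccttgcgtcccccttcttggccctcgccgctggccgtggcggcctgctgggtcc
Slc25a33 (chr4:149774218-149774517, - strand): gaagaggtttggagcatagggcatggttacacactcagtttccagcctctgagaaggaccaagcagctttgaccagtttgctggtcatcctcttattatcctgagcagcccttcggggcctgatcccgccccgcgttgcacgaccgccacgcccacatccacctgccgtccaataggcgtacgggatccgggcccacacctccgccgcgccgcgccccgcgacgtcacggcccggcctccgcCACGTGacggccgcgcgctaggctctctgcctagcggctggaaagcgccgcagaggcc

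The E-box starts 54 bases before the start shown for Slc25a14, 187 bases before it in Slc25a36 and 8 bases before it in Slc25a33. Of 3 annotated starts of Slc25a14, the same E-box lies 184 bases before another, and the window of the remaining one holds none. The table held promoters for 32 of the 43 members. CACGTG stood in those of 6 (18.8%; Slc25a1, Slc25a14, Slc25a15, Slc25a31, Slc25a33 and Slc25a36), against 8.09% of 27025 genes. TGACGTCA stood in 2 (6.25%; Slc25a25 and Slc25a36), against 2.03% of genes. An exact core word of NRF1, a factor of respiratory genes, was searched as well and stood in 0 of 32, against 1.07% of genes. These matches are words in a window and show no binding. Of the carriers that hold CACGTG, Slc25a14 lay at 0.69, Slc25a36 at 0.11, Slc25a15 at 0.02, Slc25a1 at -0.0029 and Slc25a33 at -0.05 relative to the median gene. With the scaling described below, only Slc25a14 stood apart from the median gene by more than the scanner software's error. The promoters listed for Slc25a53 and Slc25a22, both further up than Slc25a14, hold neither word. Slc25a32, also further up at 0.78, had no promoter listed. Any part of these words in the differences was not tested.

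Signals below are the processed signal of a probe in intensity units, and each ± is the scanner software's own error estimate for that signal, which covers the spot and not the sample. Differences are log2 values, SoNar-high minus SoNar-low, after each array was divided by its 75th percentile. The median of 10521 measured genes stood at 0.22 on that scale, so differences are given relative to it unless stated otherwise. A gene was called at 2-fold before the median gene was subtracted, a rule of size alone.

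As a family the carriers differed little between the populations. The median of the 28 measured members was 0.04, against 0 by definition for all measured genes, and 16 of 28 (57.1%) lay above the median gene. Their interquartile range was 0.40, from -0.06 to 0.33, and that of all genes was 0.67, from -0.37 to 0.30. The members ranged from -0.82 for Slc25a44, a carrier of branched-chain amino acids, to 0.88 for Slc25a53, a carrier with no settled substrate.

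At 2-fold 1 of 28 members was called higher on the SoNar-high array, Slc25a53, and 0 were called lower; over all measured genes 2.4% were called higher and 4.39% lower. Slc25a32 stood at 0.999 before the median gene was subtracted, just under the 2-fold line, where Slc25a53 stood at 1.10. At least 0.5 above the median gene lay 4 members (14.3%), Slc25a53, Slc25a32, Slc25a22 and Slc25a14, against 11.7% of all genes. At least 0.5 below it lay 2 (7.14%), Slc25a44 and Slc25a30, against 18.7% of all genes. The number called at 2-fold depended on the scaling, from 0 to 10 higher, and scaling to another percentile moved every gene by the same amount. Relative to the median gene these 6 members kept their side under each alternative that measured them. The number at least 0.5 above the median gene ranged from 2 to 8 over the alternatives and the number at least 0.5 below from 1 to 6. The 8 and 6 were of 43 members, with no filter on dim probes, and the 2 was of 13 members, with the brighter 50% of probes. Where 28 members were measured, 4 to 6 lay at least 0.5 above and 1 to 3 at least 0.5 below. Each of the 6 members named here rests on 1 measured probe. None of them could thus enter the 7 members with several measured probes, where both numbers were 0. Slc25a30 was within 0.5 with normexp, quantile normalization, loess and the series matrix, among others.

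**Figure D1:**
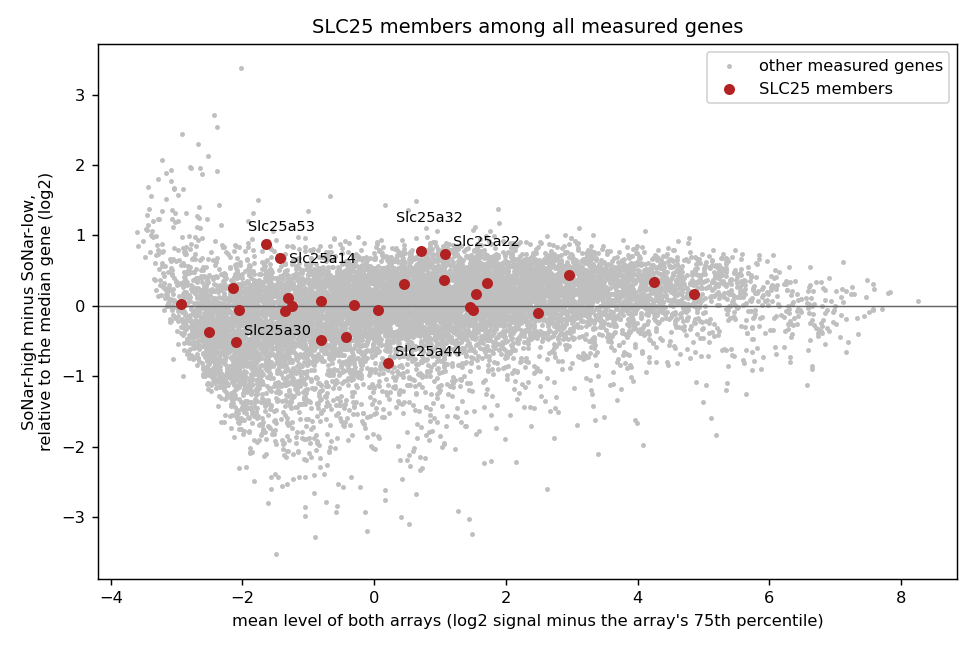
SoNar-high minus SoNar-low difference relative to the median gene (log2) against the mean level of both arrays (log2 signal minus the 75th percentile), with 28 SLC25 members in red and other measured genes in grey. The members lie between -0.82 and 0.88, inside the cloud of all genes.

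The difference of all genes moved with their level, so the members were also read by level. Over 5 equal bins of measured genes, from the dimmest to the brightest, the median of all genes was -0.27, -0.16, 0.03, 0.13 and 0.17. The 28 members fell into these bins as 6, 8, 6, 5 and 3, and their medians there were -0.02, 0.01, 0.34, -0.02 and 0.33. After a loess fit removed the dependence on level, the median member stood at 0.18.

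The carriers of adenine nucleotides and phosphate feed ATP synthase and export its product. Slc25a4 encodes ANT1, which exchanges matrix ATP for cytosolic ADP, and its probe was printed as 10 spots on each array. These spots ran from 9023 to 10302 units with a median of 9209 on the SoNar-high array, against 6812 to 7837 units with a median of 7444 on the SoNar-low array. The spots of the arrays did not overlap, and Slc25a4 lay at 0.33, with a standard error of 0.03 that covers spots alone. Over the alternatives Slc25a4 spanned 0.12, with quantile normalization, to 0.51, with no filter on dim probes. With no filter its own difference did not change, and its value rose because the median gene fell from 0.22 to 0.05. The same shift enters the spans given for members below.

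Slc25a5 encodes ANT2, the adenine nucleotide exchanger of growing cells. Its signal was 13573 ± 1357 units on the SoNar-high and 11892 ± 1189 units on the SoNar-low array, a difference of 0.17, smaller than its software error of 0.20. The probes of Slc25a3, the phosphate carrier that supplies ATP synthase, disagreed. One read 4946 ± 495 units on the SoNar-high and 6304 ± 630 units on the SoNar-low array (-0.37), and the other 303 ± 32.2 and 248 ± 25.1 units in the same order (0.27), so their mean of -0.05 describes neither.

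The ATP-Mg/phosphate carriers adjust the nucleotide pool of the matrix in response to calcium. Slc25a25 was the one measured on both arrays, and its 2 probes lay at 0.02 and 0.01. Slc25a23 and Slc25a24 were detected only on the SoNar-low array. Slc25a23 read 51.5 units on the SoNar-high and 69.1 units on the SoNar-low array. Its bound was 1.17-fold lower with SoNar-high before the median gene was subtracted (0.22 on the log2 scale), within its software error of 0.41. Slc25a24 allowed no fold above 1. The SCaMC-type gene Slc25a41 was detected on neither array, and Slc25a31, the germ cell nucleotide exchanger ANT4, only on the SoNar-low array.

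The pyrimidine nucleotide carriers supply mitochondrial DNA and RNA synthesis. Slc25a36 read 186 ± 21.6 units on the SoNar-high and 170 ± 17.6 units on the SoNar-low array, at 0.11. Slc25a33 had probes at -0.17 and 0.07. Neither gene stood apart from the median gene by more than its software error.

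**Figure D2:**
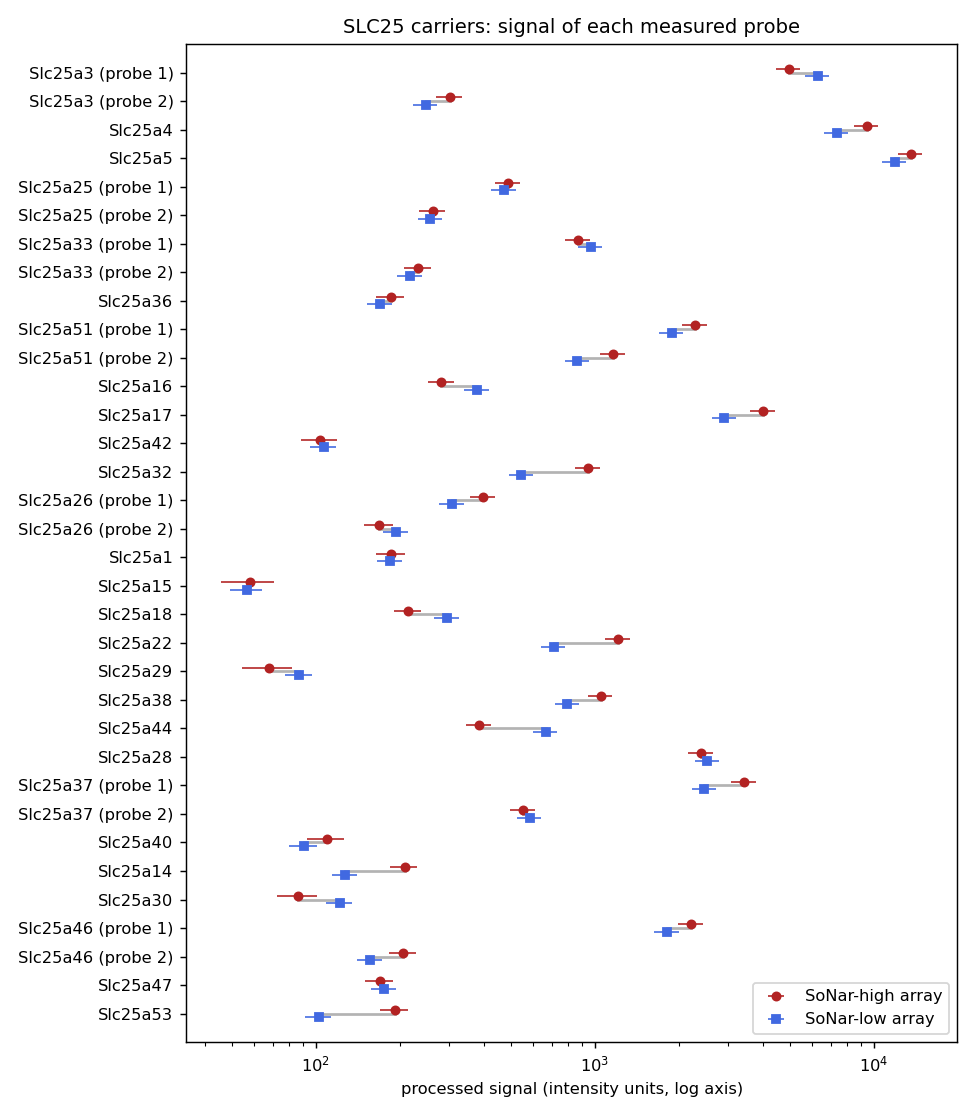
Processed signal (intensity units, log axis) of 34 probes of SLC25 members detected on both arrays, SoNar-high in red circles and SoNar-low in blue squares, with the scanner software's error. The signals are not scaled between the arrays. Among the probes brighter on the SoNar-high array by more than these errors are those of Slc25a53, Slc25a32, Slc25a22 and Slc25a14. Brighter on the SoNar-low array by more than these errors are those of Slc25a44, Slc25a18, Slc25a16 and Slc25a30 and a probe of Slc25a3.

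Of the cofactor carriers, 7 of 7 on the array were measured, 4 above and 3 below the median gene, with a median of 0.06. Slc25a51 imports NAD+ into mitochondria in human cells and so moves the molecule that the sensor reads. Its probes read 2286 ± 229 and 1163 ± 117 units on the SoNar-high array, against 1889 ± 189 and 866 ± 86.7 units on the SoNar-low array. Both were brighter on the SoNar-high array, at 0.25 and 0.40, and the gene lay at 0.33, higher than 77.0% of all measured genes. Its value spanned 0.11 to 0.51 over the alternatives.

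Slc25a32 carries folate and FAD across the inner membrane and so serves mitochondrial one-carbon metabolism and flavin enzymes. It read 948 ± 95.5 units on the SoNar-high and 545 ± 54.7 units on the SoNar-low array. The difference of 0.78, 1.71-fold, exceeded its software error of 0.21 and rested on 1 probe. It lay higher than 97.6% of all measured genes, and between 0.61 and 0.95 under every alternative.

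Slc25a17 is a peroxisomal member that carries coenzyme A, FAD and NAD+ nucleotides. It read 4011 ± 401 units on the SoNar-high and 2915 ± 292 units on the SoNar-low array, at 0.44. Its value spanned 0.18 to 0.62 over the alternatives. Slc25a16, linked to coenzyme A supply through its yeast relative, read 282 ± 30.2 and 379 ± 38.1 units in the same order and lay at -0.45, between -0.50 and -0.27 over the alternatives. Slc25a42, a carrier of coenzyme A, lay at -0.06 and has no settled direction, since it stood at 0.35 with quantile normalization and 0.38 in the authors' series matrix.

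Slc25a26, which imports S-adenosylmethionine for methylation in the matrix, had probes at 0.35 and -0.22. They opposed each other, so no direction is given for the gene.

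The carboxylate carriers were little measured. Slc25a1 exports citrate for cytosolic acetyl-CoA and lipid synthesis. It read 187 ± 21.9 units on the SoNar-high and 184 ± 19.1 units on the SoNar-low array, which put it at -0.0029 relative to the median gene. The dicarboxylate carrier Slc25a10 read 26.6 and 37.8 units in the same order and was detected only on the SoNar-low array, with no fold allowed. The oxodicarboxylate carrier Slc25a21 was detected on neither array.

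The amino acid carriers spread furthest. Of 6 measured genes 3 lay above and 3 below the median gene, with a median of -0.18. Slc25a22, a carrier of glutamate into the matrix, read 1211 ± 122 units on the SoNar-high and 713 ± 71.4 units on the SoNar-low array. Its difference was 0.74, 1.67-fold. The other glutamate carrier, Slc25a18, read 215 ± 24.0 and 295 ± 29.8 units in the same order and lay at -0.48. The glutamate carriers thus stood on opposite sides of the median gene, each by more than its software error of 0.20 and 0.22.

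Slc25a44 was the lowest member. Its probe measured on both arrays read 385 ± 40.0 units on the SoNar-high and 668 ± 66.9 units on the SoNar-low array, a difference of -0.82, 1.76-fold lower. A second probe read 29.6 and 96.1 units in the same order, and was not detected on the SoNar-high array. Both probes were thus dimmer on the SoNar-high array. Averaging in the dim one, with the median gene kept at 0.22, put Slc25a44 at -1.27.

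Slc25a38 imports glycine for the start of haem synthesis. It read 1048 ± 105 units on the SoNar-high and 797 ± 79.8 units on the SoNar-low array, at 0.37. The ornithine carrier Slc25a15 lay at 0.02 and the basic amino acid carrier Slc25a29 at -0.38, both from signals under 100 units with software errors of 0.36 and 0.33. With quantile normalization Slc25a15 stood at 0.57 and Slc25a29 at 0.12, and in the authors' series matrix at 0.68 and 0.14 in the same order, so neither value is settled. The ornithine carrier gene Slc25a2 was detected only on the SoNar-low array.

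The iron carriers, the mitoferrins, bring iron to haem and iron-sulphur cluster synthesis. Slc25a37, mitoferrin 1, had a probe with 3431 ± 343 units on the SoNar-high and 2471 ± 247 units on the SoNar-low array (0.45), and a second with 552 ± 56.4 and 585 ± 58.7 units in the same order (-0.10). Slc25a28, mitoferrin 2, read 2405 ± 241 units on the SoNar-high and 2532 ± 253 units on the SoNar-low array, at -0.10. Neither gene differed from the median gene by more than the spread between probes or the software error.

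Both glutathione carriers were dim. Slc25a40 read 110 ± 16.3 units on the SoNar-high and 90.5 ± 10.3 units on the SoNar-low array, at 0.25, within its software error of 0.27. Slc25a39 read 33.3 and 57.9 units in the same order and was detected only on the SoNar-low array. Its bound was 1.23-fold lower with SoNar-high before the median gene was subtracted (0.30 on the log2 scale), within its software error of 0.56.

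Because Slc25a37, Slc25a38 and Slc25a39 are strong in red cell precursors, erythroid markers were set beside them. Of 11 erythroid markers on the array, 3 were measured on both arrays, 6 were detected only on the SoNar-low array, and 2, Epb42 among them, on neither. Hba-a1, an alpha globin gene, lay at -2.04 and Ermap at -1.84, while Hemgn lay at 0.67. The list's scaled signals summed to 57.1 for SoNar-high and 33.6 for SoNar-low, and Hemgn made up most of each sum with 22791 and 14153 units in the same order. Their part in the carriers' values was not tested.

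Of the uncoupling protein-like carriers, 2 were measured on both arrays. Slc25a14, known as UCP5, read 208 ± 23.2 units on the SoNar-high and 128 ± 13.4 units on the SoNar-low array, at 0.69 (1.61-fold). Slc25a30, the related kidney carrier KMCP1, read 86.6 ± 14.0 and 122 ± 12.9 units in the same order, at -0.52 (1.43-fold lower). It stayed below the median gene under every alternative but was as near to it as -0.11 with quantile normalization and -0.12 in the authors' series matrix. Slc25a27, known as UCP4, was detected on neither array.

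Slc25a14 and Slc25a22 are prominent in brain, so brain markers were set beside them. Of 20 on the array 14 were measured on both arrays, with 7 at least 2-fold higher, 1 lower (Snap25) and a median of 0.91. Among the 7, the measured probes of Stmn3, Rtn1, Cck and Cpe read 25.4 to 31.9 units on the SoNar-low array. That is under the lowest detected SoNar-high signal of 40.8 units, so these genes could be measured only if brighter with SoNar-high. Markers below the median gene were Nrgn (-0.29), Snap25 (-1.26) and Syp (-0.80), which read 1622, 1308 and 935 units on the SoNar-low array. The list's scaled signals summed to 14.2 for SoNar-high and 12.3 for SoNar-low, and Stmn2, Nefl, Nefm and Gap43 were detected on neither. The markers' part in the values of Slc25a14 and Slc25a22 was not tested. Slc25a18, also known from brain, lay at -0.48.

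Among the carriers with no settled substrate, 3 of 9 were measured on both arrays. Slc25a53 read 192 ± 21.8 units on the SoNar-high and 103 ± 11.1 units on the SoNar-low array by its measured probe, 0.88 relative to the median gene. Its second probe read 36.6 and 55.7 units in the same order, not detected on the SoNar-high array, so the probes opposed each other. With that dim probe averaged in and the median gene kept at 0.22, Slc25a53 lay at 0.13 and was no longer past 2-fold.

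Slc25a46, an outer membrane member that acts in mitochondrial fission and fusion, had 2 probes that did not oppose each other, at 0.26 and 0.37. Slc25a47, a liver carrier, lay at -0.07. Slc25a34, Slc25a35 and Slc25a45 were detected only on the SoNar-low array, and Slc25a43, Slc25a48 and Slc25a54 on neither array. The bound for Slc25a45 was 1.12-fold lower with SoNar-high before the median gene was subtracted (0.16 on the log2 scale), within its software error of 0.52.

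**Figure D3:**
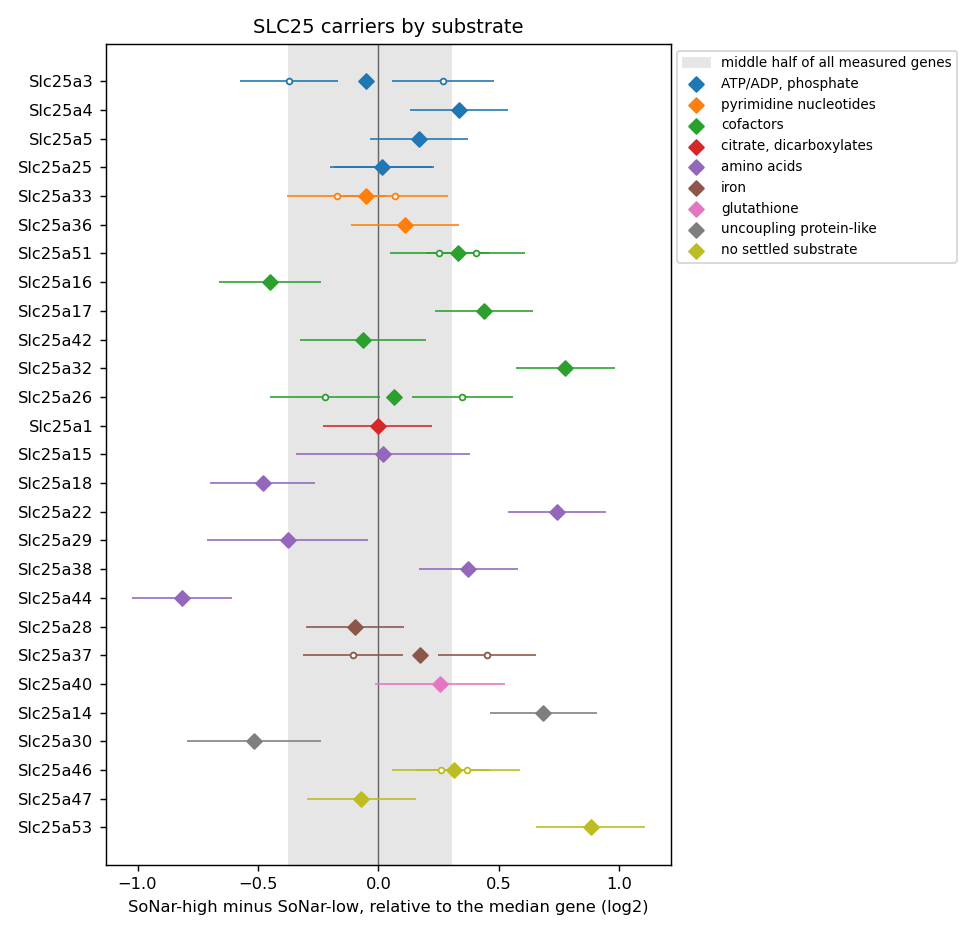
SoNar-high minus SoNar-low difference of 27 measured SLC25 members relative to the median gene (log2), ordered and coloured by substrate; diamonds are genes, open circles their probes, bars the software error, and the grey band the interquartile range of all measured genes. No substrate group lies wholly on one side by more than its errors: amino acid carriers span -0.82 to 0.74 and cofactor carriers -0.45 to 0.78.

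The detection of the family leaned to the SoNar-low array, as did that of all genes. Of 43 members 9 (20.9%) were detected only on the SoNar-low array and 0 only on the SoNar-high array, against 26.4% and 0.05% of 20618 genes. The detection floors differed between the arrays as given above, and their part in these counts was not tested.

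The labelled cell type was checked against B-lineage markers. Of 14 on the array 11 were measured on both arrays, among them Cd79b, part of the B-cell receptor, with 12625 units on the SoNar-high and 14377 units on the SoNar-low array (-0.21), while Igll1, Rag1 and Rag2 were detected on neither. The list's median was 0.19, with 7 above and 4 below the median gene. Cd22 was the 1 marker of the list past 2-fold, at -1.33 with 1252 units on the SoNar-high and 3093 units on the SoNar-low array. Of the markers of other marrow cells, neutrophil genes had a median of -0.65 (12 of 13 measured below the median gene), monocyte and macrophage genes one of -0.92 (3 of 4) and T and NK cell genes one of -1.29 (5 of 5). The lung list lay at -2.10 (3 of 3).

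The other solute channels and carriers of mitochondria were set beside the family. Of 27 genes 23 were measured, 15 above and 8 below the median gene, with a median of 0.19 and 0 past 2-fold either way. The outer membrane channel gene Vdac2 (0.53) was highest. The pyruvate carrier gene Mpc2 was lowest (-0.93), from 1 probe, while the other pyruvate carrier gene listed, Mpc1, lay at 0.27 with probes at 0.26 and 0.28. Mtch2, an outer membrane relative of the SLC25 carriers, came next at -0.87, but its probes opposed each other, at -2.06 and 0.32, so no direction is given for it. Of the 4 carriers left out by the rule, Slc25a12 lay at 0.50 and the others between -0.23 and -0.02.

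Inner membrane SLC25 proteins are imported with the help of TOM70 at the outer membrane and inserted into the inner one by the TIM22 complex. All 10 genes listed for this route were measured, 7 above and 3 below the median gene, with a median of 0.25. The chaperone genes Timm10 (0.58) and Timm10b (0.49) were highest. Timm29, a subunit of the TIM22 complex, was the 1 gene past 2-fold, at -2.92 with 388 units on the SoNar-high and 2880 units on the SoNar-low array, from 1 probe, and Timm8a1 was next at -0.15, a mean of opposed probes at -0.63 and 0.32. Timm22, the channel subunit of the same complex, lay at 0.23.

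**Figure D4:**
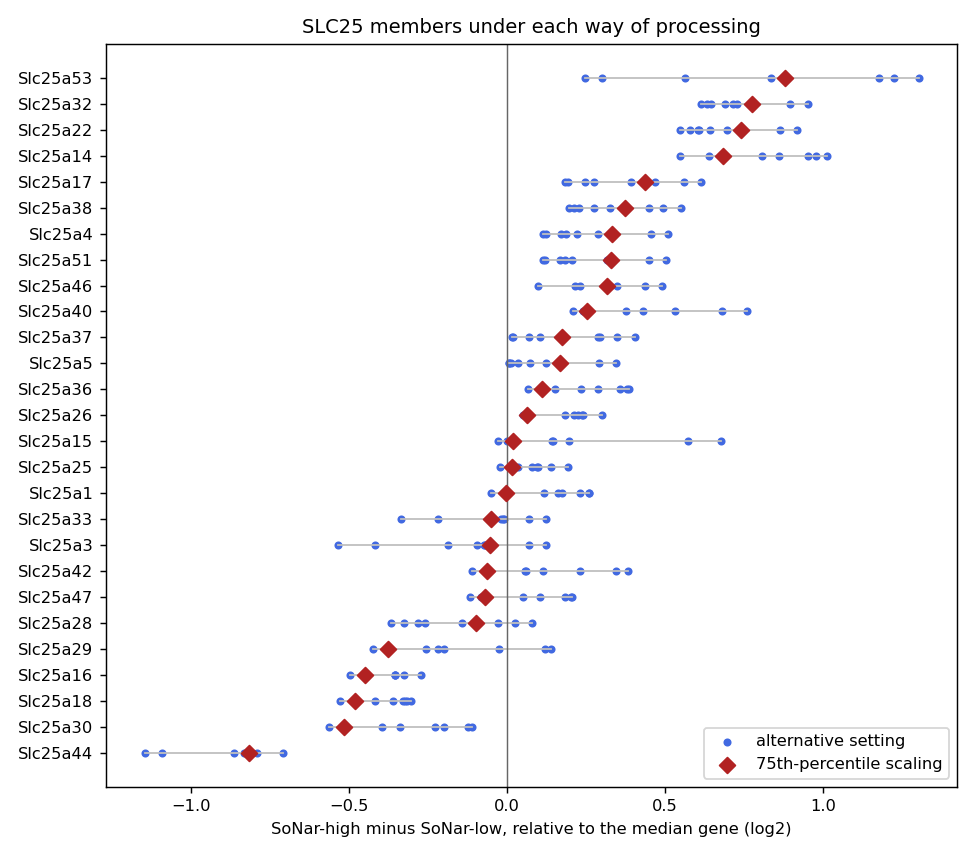
SoNar-high minus SoNar-low difference of 27 measured SLC25 members relative to the median gene (log2) with 75th-percentile scaling (red diamonds) and under each alternative way of processing (blue points). Of these members 14 stay above and 4 below the median gene throughout, and Slc25a53 has the widest span, 0.25 to 1.30.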

How the data were processed

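Per the labels' protocols, Cy3-labelled cRNA of each population went on 1 array. The deposited scanner files hold spot intensity, made by Agilent Feature Extraction 11.0.1.1 per the file headers (the submitters' processing notes name 9.1); the processed signal is background-subtracted within an array. The authors' series matrix has log2 values, of median 5.90 on both arrays, whose between-array method and centring are not given in the sources used here. Its differences ran SoNar-high minus SoNar-low as the scanner files' did (Spearman's rho 0.87 over 17188 probes, a description), but 4 of 28 members lay on the other side of the median gene there.

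Control and outlier spots were left out, spots of a probe averaged on the log2 scale, and each array's 75th percentile subtracted. Accessions were matched without versions to RefSeq symbols (GRCm38, names only): 27115 of 39085 probes matched. A probe was detected on an array where the scanner software called at least 50% of its used spots well above background, and a gene's difference averaged its probes detected on both arrays. A gene detected only on the SoNar-low array got a bound, its signal there over the higher of its own SoNar-high signal and the lowest detected one. The bound leaves out the errors of the signals, so it is not a minimum fold. Differences of at least 2-fold were counted with no test.

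The members and lists were chosen with earlier results of these data known. Named were all members, and of the lists of other mitochondrial genes the 2 highest, the 2 lowest, those past 2-fold and a few related genes. Marker lists are mostly summarised, although more of their genes had been planned. A few genes, 1 member among them, are not reported by name here. The alternatives were normexp (offset 50, on the median spot signal), other scalings, loess (span 0.3), other filters on dim probes, the brightest probe, outlier spots kept, the series matrix and other thresholds; centring on the median gene and genes with several probes were added after seeing the data. The gene step was tested on simulated data. Python 3.11.15, numpy 2.4.6, pandas 2.3.3, statsmodels 0.14.6, matplotlib 3.10.9, R 4.3.3 and limma 3.58.1 were used.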

Additional observations from a re-analysis of the deposited data

How the results depend on the processing

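No paired analysis was possible because each population had 1 array. The count of members at least 2-fold higher on the SoNar-high array, 1 as reported, was 0 with normexp, with the 75th percentile over detected probes, with no filter on dim probes, with the brighter 50% of probes, with detection at 3 SD of the negative controls, at 3-fold, with differences centred on the median gene, and among genes with 2 or more measured probes. It was 2 with quantile normalization, loess and the series matrix (Slc25a14 and Slc25a53), 6 at 1.5-fold, and 10 with scaling to the median, which put the median gene at 0.79. The count at least 2-fold lower, 0 as reported, was 3 with no filter on dim probes (Slc25a2, Slc25a31 and Slc25a44), and 1 with detection at 3 SD and at 1.5-fold. These counts moved with the scaling or the probes let in. Slc25a53 has 1 measured probe, so it could not be called among genes with 2 or more. Over all genes the called counts also moved: 253 higher and 462 lower as reported became 3380 and 140 with scaling to the median, 61 and 853 with the 75th percentile over detected probes, 348 and 392 with quantile normalization, 117 and 533 with loess, 72 and 241 with normexp, 1885 and 2542 with no filter, 141 and 111 with the brighter 50%, 286 and 1079 with 3 SD, 430 and 359 with the series matrix, and 70 and 742 centred on the median gene. The higher share of all called genes, 35.4% as reported, was 96.0%, 6.67%, 47.0%, 18.0%, 23.0%, 42.6%, 56.0%, 21.0% and 54.5% under the first 9 of these alternatives, in the same order.

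The median member lay above the median gene in every setting, between 0.02 with the brightest probe and 0.18 with loess. Relative to the median gene 18 of 28 members kept their side under every alternative that measured them, and of 237 values under the 9 alternatives that could move them 135 moved by less than the 0.15 between spots. Scaling each array by another constant cannot move such a value. The median gene itself stood at 0.05 with no filter, 0.10 at 3 SD and 0.27 with the brightest probe, against 0.22 as reported. A member whose probes stayed the same moved there by that shift alone. This was so for the side changes of Slc25a3, Slc25a28 and Slc25a33, with no filter and at 3 SD. It was also so for that of Slc25a15 with the brightest probe. Among the members that changed side were Slc25a1, Slc25a3, Slc25a15, Slc25a25, Slc25a28, Slc25a29, Slc25a33, Slc25a42 and Slc25a47. Of those that kept it, Slc25a40 spanned 0.21 to 0.76, Slc25a38 0.20 to 0.55, Slc25a46 0.10 to 0.49, Slc25a37 0.02 to 0.41 and Slc25a5 0.0061 to 0.35. For dim members the background of the SoNar-high array limits what can be measured.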

Other observations

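Genes of haem and iron-sulphur cluster synthesis, which use what the mitoferrins and the glycine carrier bring in, showed no common direction. Of 15 listed, 14 were measured, 5 above and 9 below the median gene, with a median of -0.11 and 0 past 2-fold. Highest were the coproporphyrinogen oxidase gene Cpox (0.41) and Glrx5, which passes on iron-sulphur clusters (0.31). Alas1, the first enzyme of haem synthesis outside red cells, lay at -0.82, a mean of 2 probes at -1.44 and -0.19. The probe at -0.19 was the brighter on both arrays, so the mean describes neither probe. Alas2, the counterpart of Alas1 in red cells, was detected only on the SoNar-low array. The glycine carrier Slc25a38 stood at 0.37 beside them.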
